A study of Mus musculus with 6 samples.

Results

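The expression of 8 genes that mark lymphatic endothelial cells or drive lymphatic growth was examined in adipose tissue of control and Ntsr2 AKO mice. The 8 genes were chosen by symbol: Prox1, Lyve1, Pdpn, Mmrn1 and Reln as markers of lymphatic endothelium, Flt4 and Nrp2 as receptors, and Vegfc as a ligand. All 8 symbols were found among the 21456 genes of the deposited table. RNA was sequenced from white adipose tissue (labelled adipose) of 3 control mice, which carry Ntsr2 flox/flox, and 3 Ntsr2 AKO mice, which carry Adipoq-cre together with Ntsr2 flox/flox, all fed a chow diet. Both groups therefore carry the floxed alleles, and Cre under Adipoq is active in adipocytes, so lymphatic endothelial cells are not its target. The white fat depot and the age and sex of these mice are not given in the sources used here. The mice are called control 3, 4 and 5 and Ntsr2 AKO 3, 4 and 5 after the numbers in their labels, in that order in every list of values below.

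Lymphatic vessels drain fluid, lipid and immune cells from adipose tissue. The transcription factor PROX1 sets and maintains the identity of lymphatic endothelial cells. VEGF-C, encoded by Vegfc, binds VEGFR-3, encoded by Flt4, with neuropilin-2 (Nrp2) as a co-receptor, and this signal drives the sprouting and growth of lymphatic vessels. Neurotensin, the ligand of NTSR2, has been described as a product of lymphatic endothelial cells in adipose tissue, so the comparison asks whether the lymphatic transcripts of the tissue differ when its adipocytes lack Ntsr2. Several members are not restricted to lymphatic vessels. Lyve1 is also made by tissue macrophages, Pdpn by fibroblasts and mesothelial cells, Prox1 by skeletal muscle, and Nrp2 by several stromal cell types.

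Values are normalized counts, the number of reads of a gene divided by 1 size factor for each mouse. The recovered totals were 60405373 to 66098226 reads in control mice and 54085088 to 56268725 reads in Ntsr2 AKO mice. Ntsr2, the targeted gene, had normalized counts of 83.8, 64.0 and 152.5 in control mice and 3.10, 8.29 and 0 in Ntsr2 AKO mice. Its groups did not overlap, and its adjusted p was 0.499 in limma and 1.1e-04 in DESeq2. The adipocyte genes Adipoq and Fabp4 were abundant in all 6 libraries, with means of 133593 and 192672 normalized counts per kilobase of exon. Skeletal muscle transcripts were present in 3 libraries. The summed normalized count of 10 muscle genes was 907, 415 and 2481959 in control mice and 1430, 78366 and 173978 in Ntsr2 AKO mice, so that control 5, Ntsr2 AKO 4 and Ntsr2 AKO 5 stood apart from the other 3 mice. For the members and the named pathway genes with the smallest p, the fold change without these 3 libraries is given below.

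None of the 8 members differed between the genotypes past the threshold. In limma on log2(normalized count + 1), with p values adjusted by the Benjamini-Hochberg method over the 16157 genes whose normalized counts averaged at least 10, 0 of the 8 members had an adjusted p under 0.05 and 0 had an unadjusted p under 0.05. All 8 passed the filter on low values. Over all genes tested, 0.00619% passed the adjusted threshold in limma, while 5.27% fell below and 3.08% above the controls at an unadjusted p under 0.05. edgeR and DESeq2 on the recovered reads also called 0 members, against 1.5% of the genes that DESeq2 tested. The fitted difference was below 0 for 5 members and above 0 for 3, with a median log2 fold change of -0.34 against -0.0071 over all genes tested. The size of the difference without its sign had a median of 0.60 on the log2 scale for the members and 0.23 over all genes tested. The genes tested were not matched to the members for level or spread. Prox1, Mmrn1 and Pdpn had standard errors of 0.87, 0.79 and 0.59, so the 2 medians cannot be compared directly. Fewer cells of a type and less RNA per cell cannot be told apart in RNA of a whole tissue.

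**Figure D1:**
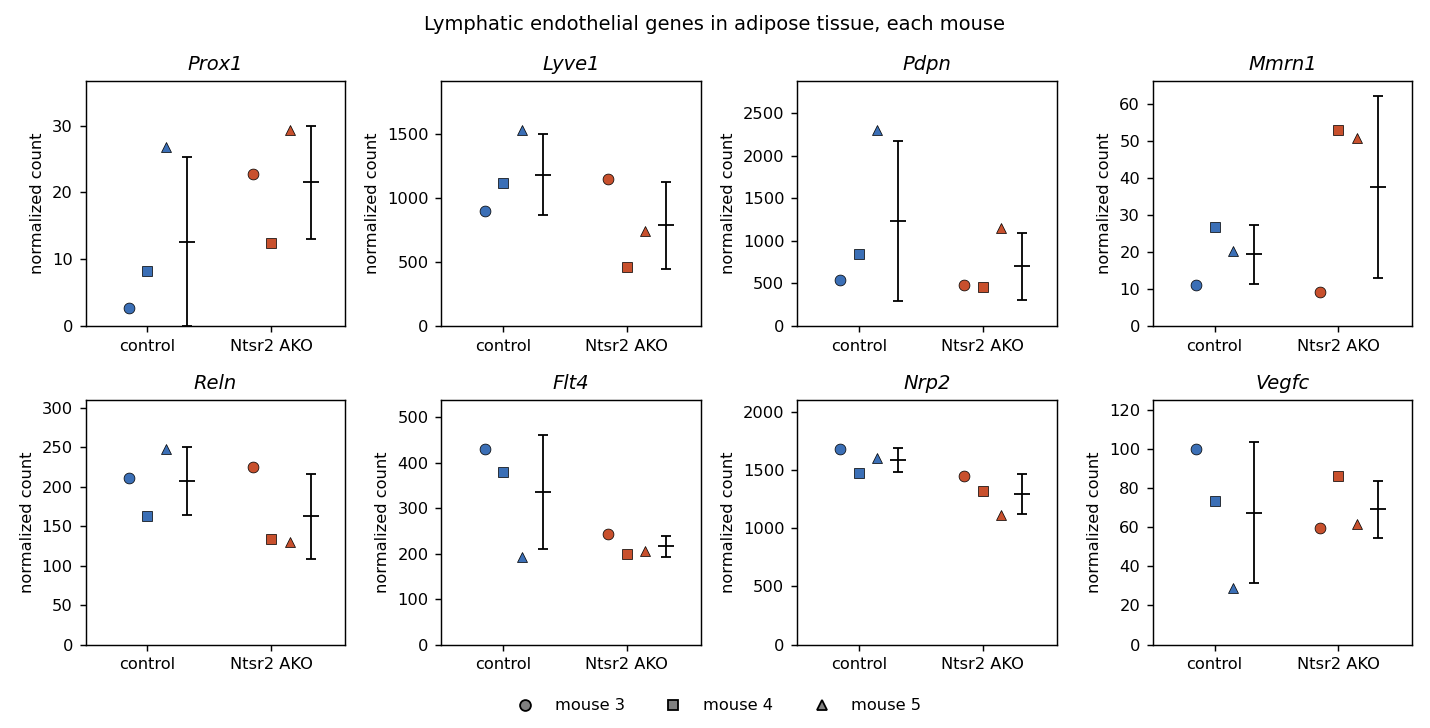
Normalized count of each of the 8 lymphatic endothelial genes (y axis, linear, from 0) in the 3 control mice (blue) and the 3 Ntsr2 AKO mice (orange), with 1 symbol for each mouse number and, beside each group, the mean and SD over 3 mice. The groups overlap for every gene except Nrp2, for which all 3 Ntsr2 AKO mice (1111 to 1453) lie below all 3 control mice (1474 to 1686).

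The levels of the 8 members in the tissue spanned a wide range. To compare genes, normalized counts were divided by the kilobases of exon of each gene. Over the 6 mice, Pdpn had the highest mean level, 530.6 ± 389 (SD, n = 6) normalized counts per kilobase, followed by Lyve1 at 338 ± 126. Nrp2 came next at 122 ± 17.3, ahead of Flt4 at 33.5 ± 12.6 and Vegfc at 27.9 ± 10.1. Reln (7.80 ± 2.10), Mmrn1 (4.85 ± 3.26) and Prox1 (2.03 ± 1.29) were the lowest. The ranges over mice of Pdpn and Lyve1 overlapped, as did those of Flt4 and Vegfc, of Reln and Mmrn1, and of Mmrn1 and Prox1. Lyve1 exceeded Nrp2, Nrp2 exceeded Flt4 and Vegfc exceeded Reln in all 6 mice with no overlap of their ranges. For scale, Pecam1, which is expressed by blood and lymphatic endothelium alike, had a mean of 1033 normalized counts per kilobase. On this per-kilobase scale Pdpn stood at 51.4% of Pecam1, Lyve1 at 32.7%, Flt4 at 3.24%, and Prox1 at 0.197%.

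Among the markers of lymphatic identity, Prox1, the transcription factor that specifies lymphatic endothelium, was read only a few times in each library. It lies on the minus strand at chr1:190118035-190170714 (GRCm38). Its normalized counts were 2.76, 8.25 and 26.9 in control mice and 22.7, 12.4 and 29.3 in Ntsr2 AKO mice, from 3, 8, 28, 22, 12 and 29 reads. Control 3 and control 4 were the lowest, but control 5 exceeded both Ntsr2 AKO 3 and Ntsr2 AKO 4, so the groups overlapped. Group means were 12.6 ± 12.6 (SD, n = 3) for control and 21.5 ± 8.52 (SD, n = 3) for Ntsr2 AKO, and the log2 fold change was 1.11 (standard error, SE, 0.87, 95% interval -0.97 to 3.18, limma adjusted p = 0.749). The counting error alone is wide at this depth: the exact 95% Poisson interval for 3 reads was 0.619 to 8.77 and that for 29 reads was 19.4 to 41.6, and these intervals cover counting error only. Of the 3 mice with the highest Prox1, control 5 and Ntsr2 AKO 5 also held skeletal muscle transcripts, while Ntsr2 AKO 3 had a muscle sum of only 1430. Ntsr2 AKO 4, with a muscle sum of 78366, was below Ntsr2 AKO 3 for Prox1. Without the 3 libraries that hold muscle transcripts, which leaves 2 control mice and 1 Ntsr2 AKO mouse, the log2 fold change of Prox1 was 2.01, and with the muscle level as a covariate it was 0.91. With 1 mouse left out the log2 fold change ran from 0.41 (without control 3, the library with 3 reads) to 1.85 (without control 5). The antisense gene Prox1os shares 133 exonic bases with Prox1, and since the handling of strand is not stated, reads of the 2 genes cannot be told apart there.

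Lyve1 encodes a hyaluronan receptor of lymphatic capillaries and lies on the minus strand at chr7:110850607-110863239. Control mice had 903, 1120.4 and 1534 normalized counts of Lyve1, and Ntsr2 AKO mice had 1149, 465 and 747. In Ntsr2 AKO mice, 2 values lay below every control mouse, and Ntsr2 AKO 3 lay between control 4 and control 5. Group means were 1186 ± 321 (SD, n = 3) for control and 787 ± 343 (SD, n = 3) for Ntsr2 AKO, and the log2 fold change was -0.65 (SE 0.35, 95% interval -1.49 to 0.19, limma adjusted p = 0.646). The 2 Ntsr2 AKO mice with low Lyve1 were those whose libraries held skeletal muscle transcripts, although control 5, with the highest muscle sum, had the highest Lyve1. Without the 3 muscle libraries the log2 fold change was 0.19, and with the muscle level as a covariate it was -0.66. The macrophage list, 10 genes led by C1qa and Mrc1, summed to 25983 to 61226 in control mice and 28151 to 51022 in Ntsr2 AKO mice. Ntsr2 AKO 4 was lowest for Lyve1 and second lowest for the macrophage sum, while control 3 was lowest for the macrophage sum. The part of macrophages in the Lyve1 level was not tested.

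Pdpn encodes podoplanin, a surface glycoprotein of lymphatic endothelium that binds CLEC-2 on platelets, and lies on the minus strand at chr4:143267431-143299564. The 3 control mice had 544, 843 and 2301 normalized counts of Pdpn, and the 3 Ntsr2 AKO mice had 487, 454 and 1156. Within each genotype mouse 5 was far above the other 2 mice, and in control mice the highest value was 4.23 times the lowest. Group means were 1229 ± 940.3 (SD, n = 3) for control and 699 ± 396 (SD, n = 3) for Ntsr2 AKO, and the log2 fold change was -0.68 (SE 0.59, 95% interval -2.08 to 0.72, limma adjusted p = 0.770). Without control 5 alone the log2 fold change was -0.093, the value nearest to 0 among the fits that left out 1 mouse, and without the 3 muscle libraries it was -0.47. The fibroblast and adipose progenitor list, 8 genes led by Col3a1 and Dcn, summed to 168843 to 318371 in control mice and 212417 to 555256 in Ntsr2 AKO mice, with the highest value in Ntsr2 AKO 5. Of the 6 mesothelial genes in the table, Msln did not exceed 20.1 normalized counts in any mouse, and Upk3b and Wt1 were each above 0 in a single mouse. Lrrn4 ranged from 52.8 to 119.6, and Krt8 reached 73.6 in control 3 and at most 7.67 elsewhere. Control 3 was also the highest for the summed list of epithelial genes (217, at most 45.4 elsewhere). Krt19, a keratin of mesothelium and other epithelia, had 134, 413 and 84.4 normalized counts in control mice and 68.1, 32.1 and 67.8 in Ntsr2 AKO mice, without overlap. The part of fibroblasts and mesothelial cells in the Pdpn level was not tested.

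Mmrn1, which encodes the secreted protein multimerin-1 and lies on the plus strand at chr6:60924976-60989378, is a marker of lymphatic endothelium that platelets and their precursors also carry. It had normalized counts of 11.04, 26.8 and 20.1 in control mice and 9.29, 52.9 and 50.6 in Ntsr2 AKO mice, from 9 to 51 reads. Ntsr2 AKO 4 and Ntsr2 AKO 5 were above all control mice, whereas Ntsr2 AKO 3 was the lowest of all 6 mice. Group means were 19.3 ± 7.92 (SD, n = 3) for control and 37.6 ± 24.5 (SD, n = 3) for Ntsr2 AKO, and the log2 fold change was 0.67 (SE 0.79, 95% interval -1.20 to 2.54, limma adjusted p = 0.825). The 2 high mice hold skeletal muscle transcripts, while control 5, with 2481959 normalized counts of muscle genes, had an Mmrn1 level within the range of the other control mice. Without the 3 muscle libraries the log2 fold change was -0.83, and without Ntsr2 AKO 3 alone it was 1.46.

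Reln encodes reelin, a secreted glycoprotein made by lymphatic endothelial cells of collecting vessels as well as by neurons, and lies on the minus strand at chr5:21884454-22344702. The normalized counts of Reln were 211, 163 and 248 in control mice and 225, 134 and 129.5 in Ntsr2 AKO mice. Ntsr2 AKO 4 and Ntsr2 AKO 5 were again below every control mouse, and Ntsr2 AKO 3 was second only to control 5. Group means were 207 ± 42.8 (SD, n = 3) for control and 163 ± 54.0 (SD, n = 3) for Ntsr2 AKO, and the log2 fold change was -0.37 (SE 0.31, 95% interval -1.11 to 0.36, limma adjusted p = 0.760). Without the 3 muscle libraries the log2 fold change was 0.28. The antisense gene Gm10475 shares 246 exonic bases with Reln, whose exons cover 23738 bases in all.

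Of the receptors, Flt4, which encodes VEGFR-3 and lies on the plus strand at chr11:49609263-49652739, was high in 2 control mice. Its normalized counts were 432, 381 and 194 in control mice and 243, 200.05 and 206 in Ntsr2 AKO mice. Control 3 and control 4 were above all Ntsr2 AKO mice, but control 5 was the lowest of all 6, so the groups overlapped. Group means were 335 ± 125 (SD, n = 3) for control and 216 ± 22.9 (SD, n = 3) for Ntsr2 AKO, and the log2 fold change was -0.55 (SE 0.33, 95% interval -1.34 to 0.23, limma adjusted p = 0.678). Flt4 is also expressed by fenestrated and sprouting blood endothelium. The list of 10 endothelial genes, led by Pecam1 and Cdh5, summed to 39812, 36877 and 24884 in control mice and to 32712, 33071 and 24901 in Ntsr2 AKO mice, so that control 5 was low for these genes as it was for Flt4. Without control 5 the log2 fold change of Flt4 was -0.91, and without the 3 muscle libraries it was -0.74.

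Nrp2, the co-receptor, lies on the plus strand at chr1:62703285-62818695 and was the only member whose groups did not overlap. For Nrp2 the normalized counts were 1686, 1474 and 1601 in control mice and 1453, 1321 and 1111 in Ntsr2 AKO mice. The lowest control mouse and the highest Ntsr2 AKO mouse were nearly equal. Group means were 1587 ± 107 (SD, n = 3) for control and 1295 ± 172 (SD, n = 3) for Ntsr2 AKO, and the log2 fold change was -0.30 (SE 0.14, 95% interval -0.64 to 0.04, limma p before adjustment 0.0755, limma adjusted p = 0.616). An exact two-sided permutation test of the 6 mice gave p = 0.1, the smallest value that 3 against 3 mice allow. Among all genes tested, 8.16% had groups that did not overlap with lower values in Ntsr2 AKO mice and 6.82% had groups that did not overlap with higher values, so 1 member of 8 was near the background. The log2 fold change of Nrp2 was below 0 in all 19 fits and lay between -0.39 and -0.12, the latter without the 3 muscle libraries.

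Vegfc, the ligand of VEGFR-3, lies on the plus strand at chr8:54077606-54187096. Counts of Vegfc after normalization were 100.3, 73.2 and 28.8 in control mice and 59.9, 86.0 and 61.7 in Ntsr2 AKO mice. Control mice held both the highest and the lowest value, and all 3 Ntsr2 AKO mice lay between them. Group means were 67.4 ± 36.1 (SD, n = 3) for control and 69.2 ± 14.6 (SD, n = 3) for Ntsr2 AKO, and the log2 fold change was 0.19 (SE 0.51, 95% interval -1.03 to 1.41, limma adjusted p = 0.934). The direction depended on control 5: without this mouse the log2 fold change was -0.32, and without the 3 muscle libraries it was -0.51.

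**Figure D2:**
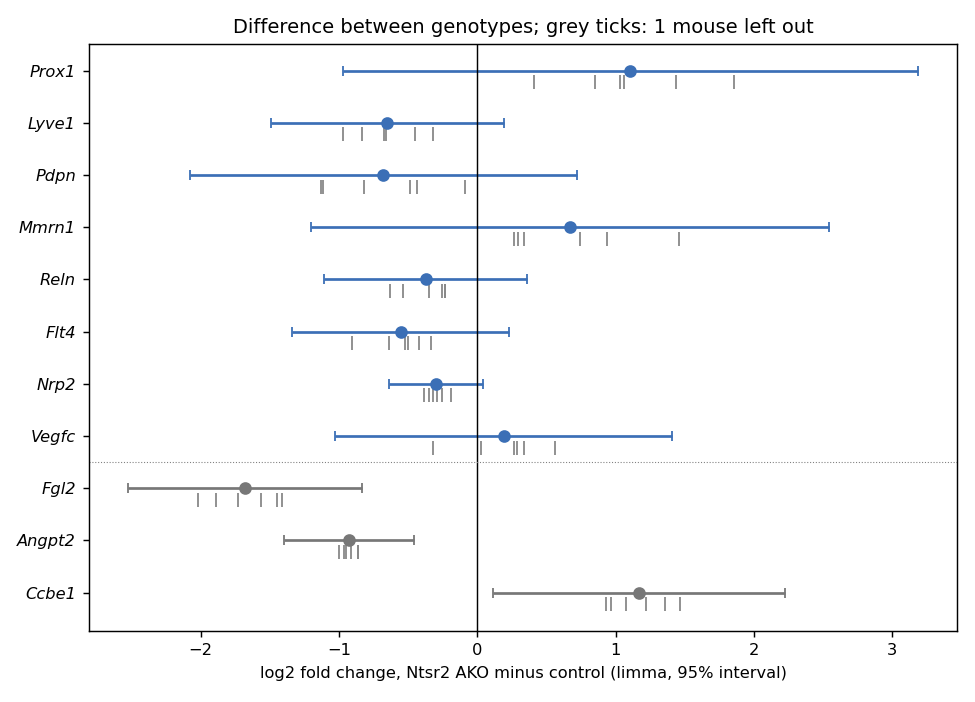
Log2 fold change (x axis, Ntsr2 AKO minus control, limma on log2(normalized count + 1)) with its 95% interval for the 8 members (blue) and for the 3 other lymphatic genes with an unadjusted p under 0.05 (grey points, below the dotted line); the short grey ticks under each point are the values with 1 mouse left out. The intervals of all 8 members include 0, and the interval of Nrp2 (-0.64 to 0.04) is the narrowest of the 8.

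The 5 markers of lymphatic endothelium and the receptor Flt4 were then expressed relative to Pecam1, an endothelial transcript, within each mouse. Macrophages also make Lyve1, and fibroblasts and mesothelial cells Pdpn, so these ratios are not a measure of the lymphatic share of endothelium alone. For every 1000 normalized counts of Pecam1, control mice had 108, 160 and 294 of Lyve1 and Ntsr2 AKO mice had 190.5, 63.5 and 160. The highest and the lowest of these were control 5 and Ntsr2 AKO 4. For Flt4 the same ratio was 51.7, 54.3 and 37.1 in control mice and 40.2, 27.3 and 44.2 in Ntsr2 AKO mice. The mean log2 ratio to Pecam1 in Ntsr2 AKO mice minus that in control mice was 1.29 for Prox1, 0.86 for Mmrn1, -0.19 for Reln, -0.37 for Flt4, -0.46 for Lyve1 and -0.49 for Pdpn. The groups overlapped for all 6 ratios. The exact two-sided permutation p was 0.3 for Prox1 and Flt4, 0.4 for Mmrn1, 0.5 for Lyve1, 0.6 for Pdpn and 0.7 for Reln, and each was 0.7 after adjustment over the 6 ratios. With 3 against 3 mice this test cannot go below 0.1. The direction of the ratio changed for Pdpn without control 5 (0.28), for Reln without control 5 (0.14) or Ntsr2 AKO 4 (0.085) and for Lyve1 without Ntsr2 AKO 4 (0.022).

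**Figure D3:**
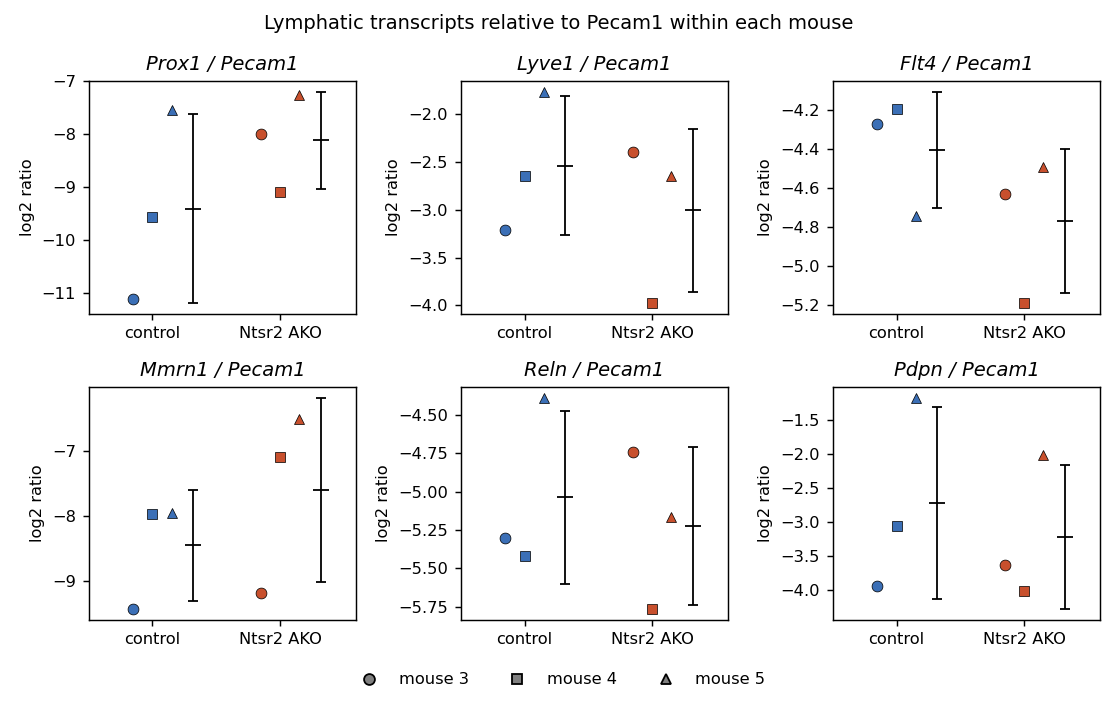
Log2 ratio of the normalized counts of 5 lymphatic markers and the receptor Flt4 to those of Pecam1 (y axis, with a count of 1 added to both), for each control mouse (blue) and Ntsr2 AKO mouse (orange), with the mean and SD over 3 mice beside each group. The y axes differ between panels, and the groups overlap in all 6 panels.

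The members did not vary as 1 group from mouse to mouse. Of the 28 pairs of members, 15 had a positive and 13 a negative Pearson r over the 6 mice on the log2(normalized count + 1) scale, with a median r of 0.028. The highest was that of Reln with Nrp2 (r = 0.82, exact permutation p = 0.0333, n = 6; Spearman rho = 0.71, p = 0.136), and the lowest that of Prox1 with Flt4 (r = -0.87, exact permutation p = 0.0181, n = 6; rho = -0.71, p = 0.136). An unadjusted p under 0.05 was found for 5 pairs in Pearson's r and an adjusted p under 0.05 for 0 of 28, the smallest adjusted value being 0.257. Without the 2 mice farthest from the median of the first gene, r was 0.37 for Reln with Nrp2 and 0.094 for Prox1 with Flt4, so both relations rested on those mice. Lyve1 and Reln, which both were low in Ntsr2 AKO 4 and Ntsr2 AKO 5, had r = 0.81 and rho = 0.89, and r remained 0.64 without the 2 farthest mice, control 5 and Ntsr2 AKO 4. Mmrn1 and Reln had r = -0.87 (rho = -0.77), which was -0.80 without the 2 farthest mice. The 6 mice share a tissue but not a genotype, and within a genotype 3 mice are too few for a correlation. After each gene was taken as its deviation from the group mean, 13 pairs were positive and 15 negative, and 0 passed the adjusted threshold. Among the 5 lymphatic markers and Flt4, 9 of 15 pairs were positive, with a median r of 0.17.

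**Figure D4:**
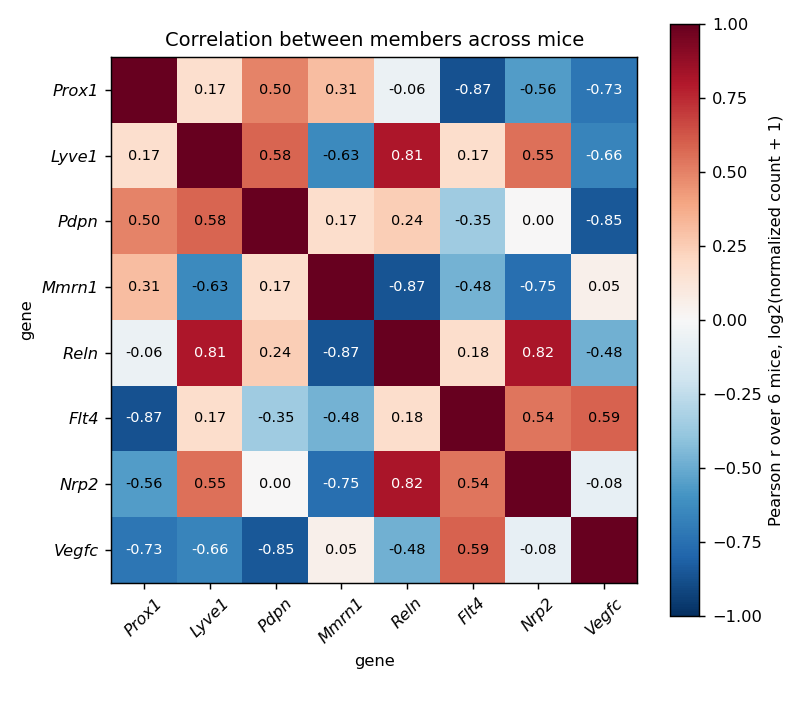
Pearson r over the 6 mice between each pair of the 8 members, computed on log2(normalized count + 1) and shown by colour from -1 (blue) to 1 (red) with the value printed in each cell. Lyve1, Reln and Nrp2 have positive values with each other (0.55 to 0.82), and Mmrn1 has negative values with all 3 (-0.87 to -0.63).

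No single mouse was high or low for all members. Control 3 and control 5 were each the highest for 3 members, and Ntsr2 AKO 4 and Ntsr2 AKO 5 for 1 each. The lowest value of a member lay in control 5, Ntsr2 AKO 4 or Ntsr2 AKO 5 for 2 members each, and in control 3 and Ntsr2 AKO 3 for 1 each. Across all 6 mice the ratio of the highest to the lowest value ran from 1.52 for Nrp2 to 10.6 for Prox1.

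Other genes of lymphatic development and VEGF signalling were counted from a list of 44 genes in the table. Of these, 42 passed the filter on low values, and 0 had an adjusted p under 0.05 in limma. At an unadjusted p under 0.05, 2 were lower in Ntsr2 AKO mice (Fgl2 and Angpt2) and 1 was higher (Ccbe1), against the background of 5.27% and 3.08% of all genes tested. Genes whose groups did not overlap included Angpt2, Fgl2 and Flt1, with lower values in Ntsr2 AKO mice, and Ccbe1, with higher values. The median log2 fold change of the 42 genes was -0.044, with 23 below 0 and 19 above. DESeq2 on the recovered reads called 2 of the genes, Fgl2 (adjusted p = 0.000682) and Angpt2 (adjusted p = 0.00661), both lower, against 1.5% of the genes that it tested in all, and edgeR called 0.

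Among the 11 ligands and genes that process them, Angpt2 separated the groups most evenly. Angpt2 encodes angiopoietin-2, a TIE2 ligand needed for the remodelling of blood and lymphatic vessels. Its normalized counts were 315, 335 and 277 in control mice and 167, 171 and 148 in Ntsr2 AKO mice. The mice of each genotype lay close together and far from those of the other. The log2 fold change was -0.93 (SE 0.20, 95% interval -1.39 to -0.46, limma adjusted p = 0.499), and it stayed between -1.002 and -0.86 when 1 mouse was left out. Without the 3 muscle libraries it was -0.95. The adjusted p of Angpt2 passed the threshold in DESeq2 and in no other fit.

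Ccbe1, whose product helps to cleave VEGF-C into its active form, had normalized counts of 46.9, 26.8 and 23.0 in control mice and 53.7, 98.5 and 65.8 in Ntsr2 AKO mice. Control 3 came close to Ntsr2 AKO 3. The log2 fold change was 1.17 (SE 0.44, limma adjusted p = 0.567), and the adjusted p in DESeq2 was 0.347. The log2 fold change of Ccbe1 was 0.58 without the 3 muscle libraries. Adamts3, the protease that works with CCBE1, had a log2 fold change of -0.052 with overlapping groups. Vegfd, listed under its older symbol Figf, is the other ligand of VEGFR-3. Normalized counts of Vegfd were 1074, 1083 and 1143 in control mice and 1210, 958 and 1489 in Ntsr2 AKO mice, with a log2 fold change of 0.12. Per kilobase of exon the mean level of Vegfd was 482 normalized counts, compared with 27.9 for Vegfc and 6445 for Vegfa. Angpt1, a TIE2 agonist, was among the genes with the smallest p and a fold change above 0 (log2 fold change 0.27, limma adjusted p = 0.699, log2 fold change 0.19 without the 3 muscle libraries).

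Nts, which encodes neurotensin, was below the filter. Its normalized counts were 9.20, 6.19 and 15.3 in control mice and 0, 0 and 8.10 in Ntsr2 AKO mice, from 10, 6, 16, 0, 0 and 8 reads. The groups overlapped between control 4 and Ntsr2 AKO 5. For the 0 reads in Ntsr2 AKO 3 and Ntsr2 AKO 4 a floor of 3 reads was set, or 3.10 and 3.11 normalized counts. This floor is a fixed value and not an exact Poisson interval like those given for Prox1. The exact two-sided permutation test gave p = 0.2 for 3 against 3 mice, and limma without a filter gave an adjusted p of 0.666. These 2 mice, Ntsr2 AKO 3 and Ntsr2 AKO 4, had 1149 and 465 normalized counts of Lyve1 and 9.29 and 52.9 of Mmrn1. With 0 to 16 reads the order of Nts over mice is uncertain.

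Of the 9 other receptors, 0 had an unadjusted p under 0.05 in limma, 3 had a fitted difference below 0 and 6 above. Flt1, a decoy receptor for VEGF-A, had normalized counts of 4669, 3982 and 3936 in control mice and 3846, 3430 and 2412 in Ntsr2 AKO mice, groups that did not overlap (log2 fold change -0.40, SE 0.19, limma adjusted p = 0.616). The log2 fold change of Flt1 was -0.16 without the 3 muscle libraries. Kdr, which encodes VEGFR-2, had a log2 fold change of 0.16 and Nrp1, the co-receptor of blood endothelium, one of 0.010. Of the 8 transcription factors, 0 had an unadjusted p under 0.05, 4 were below 0 and 4 above, and their groups all overlapped. Sox18 and Nr2f2, which act upstream of Prox1, had log2 fold changes of -0.069 and 0.11. Foxc2, needed for lymphatic valves, had one of -0.77 with a limma adjusted p of 0.684.

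Fgl2, on the list as a gene with high expression in lymphatic endothelium that macrophages and T cells also express, had the lowest p of the 42 genes. In normalized counts, Fgl2 stood at 5202, 9733 and 11494 in control mice and 3502, 1799 and 2815 in Ntsr2 AKO mice. All Ntsr2 AKO mice lay below all control mice. The log2 fold change was -1.68 (SE 0.36, 95% interval -2.52 to -0.83, limma adjusted p = 0.499), and without the 3 muscle libraries it was -1.02. The macrophage sums of the groups overlapped, as given with Lyve1, and the part of immune cells in the Fgl2 level was not tested. Stab2, a hyaluronan receptor of sinusoidal and lymphatic endothelium, had 99.4, 50.6 and 670 normalized counts in control mice and 23.7, 33.2 and 55.7 in Ntsr2 AKO mice, for which the log2 fold change was -2.06 and the limma adjusted p was 0.608. Control 5 was far above the other mice for Stab2, and without it the log2 fold change was -0.99. It was -1.54 without the 3 muscle libraries.

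Ccl21a, the chemokine with which lymphatic vessels attract dendritic cells and which lymph node stroma also makes, was high in 1 control mouse. Normalized counts of Ccl21a were 948, 33.0 and 14.4 in control mice and 14.5, 29.0 and 193 in Ntsr2 AKO mice. Ccl21b and Gm21541, near-identical copies that can share reads with Ccl21a, were also highest in control 3. Control 3 also had the highest T cell sum, 1681 against at most 651 in the other 5 mice, and the highest Ccl19 (269 normalized counts, at most 89.1 elsewhere). Cxcl13, the most abundant gene of the list of lymph node B cell and stroma genes, was instead highest in control 5 (2909, against 712 in control 3), as was the sum of that list (3018, against 1685 in control 3). The follicular dendritic gene Cr2 had a value of 1.84 in control 3 and 0 elsewhere. Control 3 was also the highest for Flt4, Nrp2 and Vegfc. Without control 3, the log2 fold change was -0.33 for Flt4, -0.26 for Nrp2 and 0.56 for Vegfc. The part of lymph node or immune cells in these levels was not tested.

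The lists of markers for other cell types overlapped between the genotypes in all 11 cases, and 0 of their tested genes had an adjusted p under 0.05 in limma. Besides those given above, the sums of normalized counts in control and Ntsr2 AKO mice were 1118447 to 1649125 and 1449037 to 1651531 for 8 adipocyte genes led by Fabp4 and Adipoq. Mural cell genes, led by Rgs5 and Des, summed to 22292 to 62218 and 22381 to 27872, with the highest value in control 5. That value came from Des, which skeletal muscle fibres also express and which had 40798 normalized counts in control 5 and 585 to 3041 elsewhere. Without Des the mural sum of control 5 was 21419.9, below those of control 3 (29767) and control 4 (21707). The list of lymph node B cell and stroma genes, led by Cxcl13 and Ccl19, summed to 1187 to 3018 and 896 to 1398. T cell genes, led by Lck and Cd4, summed to 289 to 1681 in control mice and 229 to 600.1 in Ntsr2 AKO mice. Sums were 165 to 470.4 and 147 to 177 for mesothelial genes, led by Krt19 and Lrrn4, 37.4 to 217 and 36.3 to 39.5 for epithelial genes, led by Cdh1 and Krt18, and 2843 to 4468 and 2609 to 4018 for genes of neurons and Schwann cells. The muscle list was led by Myh4 and Ckm.

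**Figure D5:**
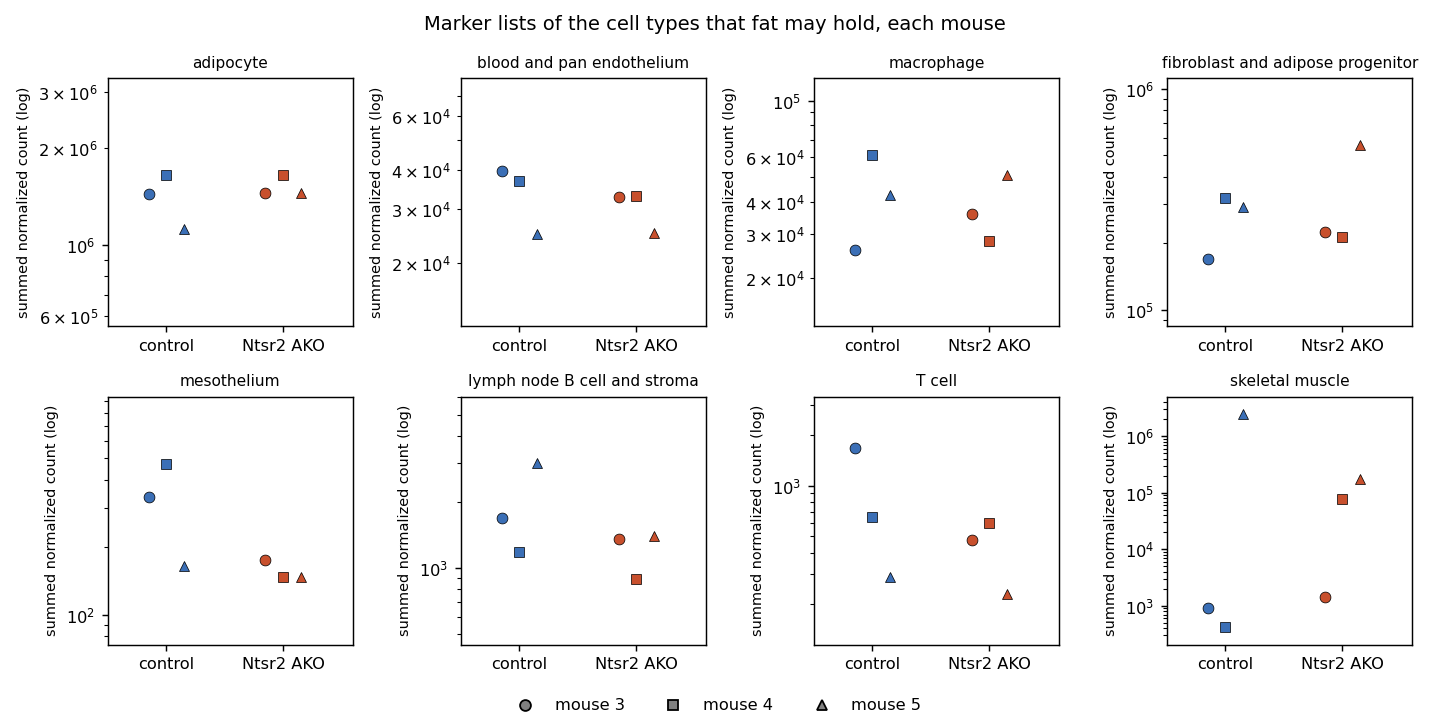
Summed normalized count (y axis, log scale) of the marker genes of 8 cell types in each control mouse (blue) and Ntsr2 AKO mouse (orange). Skeletal muscle genes are high in control 5, Ntsr2 AKO 4 and Ntsr2 AKO 5, T cell genes are highest in control 3, and the groups overlap in all 8 panels.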

How the data were processed

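RNA-seq of adipose tissue from 3 control and 3 Ntsr2 AKO mice was analysed. Per their methods and the labels, the authors trimmed reads with Trimmomatic, aligned them with HISAT2 (mm10), quantified genes with StringTie and tested them with DESeq2; the annotation and the handling of strand are not given in the sources used here. The deposited values are a signal table of normalized counts, that is, read counts divided by 1 size factor for each mouse. Division by the step of each column gave whole reads for 100% of the values (within 0.01), and the totals approximate the depth. At this depth counting error matters only for genes with few reads, and precision is otherwise set by the 3 mice per group.

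Values were taken as log2(normalized count + 1), filtered to a mean of at least 10 and fitted with limma 3.58.1 (mean-variance trend, no covariates) in R 4.3.3 over all 6 mice, with Benjamini-Hochberg adjustment at 0.05. As alternatives, the recovered reads were tested with edgeR 4.0.16 and DESeq2 1.42.0. Each sample was taken as 1 mouse; the labels do not state this, and p values measure only the spread between these samples. Exact permutation tests were enumerated with numpy 2.4.6. Their Benjamini-Hochberg adjustment, the ranks and the Poisson intervals used scipy 1.17.1. The limma, edgeR and DESeq2 fits were tested on simulated data with large differences, put only in genes with higher counts than Prox1, Mmrn1 and Vegfc. Whether differences of the size fitted for the members could be detected was not tested. No 2 libraries were duplicates.

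The members and lists were chosen with earlier results of these data known. Named genes were all members, Ntsr2, Nts, the pathway genes whose groups did not overlap, the 3 with the smallest p in each direction, the 2 most abundant genes of each cell type list and the 2 genes most like each member; others were named after their values were seen. A few genes that this rule names are not reported here. Of 45 pathway genes listed, 44 were in the table. Positions and exon lengths are from GENCODE M21 on GRCm38, the assembly also called mm10. Other settings tried were pseudocounts of 0.1 and 5, the filter removed or raised to a mean of 50, quantile or TMM scaling, no trend, a replicate block, Cdh5 in place of Pecam1, and each mouse left out. The muscle covariate and the fit without the 3 muscle libraries were chosen after seeing the data.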

Additional observations from a re-analysis of the deposited data

How the results depend on the processing

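The count of members past the adjusted threshold was 0 in the 18 alternatives run. Among all genes, 1 gene (Egr1) passed it in limma, and this count became 0 with no filter, no mean-variance trend, the replicate block, edgeR, each mouse left out (0 to 0), the muscle covariate and the fit without the 3 muscle libraries (2 control mice and 1 Ntsr2 AKO mouse, the lone mouse being assumed to vary like the others), and 220 in DESeq2, where the pathway count was 2 in place of 0 with log2 fold changes of -1.70 for Fgl2 and -0.93 for Angpt2. Without the 3 muscle libraries the direction turned for Lyve1 (0.19), Mmrn1 (-0.83), Reln (0.28) and Vegfc (-0.51). With 1 mouse left out, the log2 fold change of Vegfc ran from -0.32 to 0.56, and the difference in the ratio to Pecam1 from -0.80 to 0.022 for Lyve1, -0.43 to 0.14 for Reln and -1.10 to 0.28 for Pdpn. The cause was not tested. Prox1 and Mmrn1 gave no value with a mean of at least 50, and DESeq2 gave no adjusted p for Prox1. Deviations of same-numbered mice correlated at 0.45, -0.24 and 0.41 over genes, and those of differently numbered mice at -0.52 to 0.26. With 3 mice per group these values cannot decide whether the numbers pair the mice. The replicate block gave 0 genes and 0 members past the threshold, and 1303 genes at an unadjusted p under 0.05. In limma at that unadjusted threshold, 1 member passed with the block, 1 without control 5 and 3 without Ntsr2 AKO 3. Of all genes tested, 1041 did so without control 5 and 1696 without Ntsr2 AKO 3. Few reads limit Prox1, Mmrn1 and Nts.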

Other observations

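For each member the 2 tested genes with the most similar levels over the 6 mice were found by Pearson's r on log2(normalized count + 1) among 16156 other genes. They were Zfp128 (r = 0.987) and Hmgxb4 (0.980) for Prox1, Serpina3i (0.996) and Tbc1d15 (0.991) for Lyve1, Npl (0.999) and Trpm1 (0.995) for Pdpn, Fxyd1 (0.998) and 1700066M21Rik (0.996) for Mmrn1, and Tceb3 (0.993) and Dohh (0.985) for Reln. For the receptors and the ligand they were Gpr171 (0.979) and B230216N24Rik (0.973) for Flt4, Sf3a2 (0.998) and Clic4 (0.997) for Nrp2, and Pik3c2a (0.992) and A430078G23Rik (0.992) for Vegfc. None of these 16 genes is another member or a gene of the lymphatic lists. Between 14 genes (Flt4) and 181 genes (Nrp2) had an r over 0.95 with a member, and with 6 mice and this many genes such values are a description of these libraries. Npl had normalized counts of 180.4, 248 and 464 in control mice and 165, 160 and 305 in Ntsr2 AKO mice, the same order over the 6 mice as that of Pdpn. Gpr171 had 109.5, 93.9 and 39.3 in control mice and 41.3, 31.1 and 38.5 in Ntsr2 AKO mice.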
